A study of Mus musculus with 4 samples.

Results

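The transcripts examined here encode the NF-κB transcription factor and the proteins that its own activity induces to restrain it. The set holds 10 genes, matched by symbol among the 53465 genes of the count table; no measured value enters this rule, but the list was drawn up with earlier results of these data known. They are the 5 REL-family subunits (Nfkb1, Nfkb2, Rela, Relb and Rel), the cytoplasmic inhibitors Nfkbia and Nfkbie, the nuclear IκB proteins Nfkbiz and Bcl3, and the ubiquitin-editing inhibitor Tnfaip3. Each symbol matched 1 row, and all 10 genes had enough reads to be tested, among 14682 genes tested in all.

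RNA was sequenced from myeloid-derived suppressor cells (MDSCs), a mixed population of immature granulocytic and monocytic cells that expands with tumors and restrains T cells. The cells came from spleens of male BALB/c mice, 6 weeks old at injection per the study's methods. Each mouse carried a tumor grown from 1000000 injected cells of 4T1, a mouse mammary carcinoma line. Beads against Gr-1, an epitope of Ly-6G and Ly-6C, were used to isolate the MDSCs. The labels give day 21 for this, whereas the methods name an earlier day. The control group was kept in control medium (n = 2 libraries) and the EGCG treatment group received 5 μg/mL of the green tea polyphenol EGCG (n = 2 libraries), both for 6 h outside the animal. Both groups therefore share the tumor, the strain, the sort and the culture period.

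NF-κB works as a dimer. RelA, RelB and c-Rel carry a transactivation domain, whereas p105 (Nfkb1) and p100 (Nfkb2) are precursors that are processed to the DNA-binding subunits p50 and p52. In resting cells IκB proteins hold the dimers in the cytoplasm until the IκB kinase (IKK) phosphorylates them and they are degraded. Freed dimers bind κB sites and induce, among many inflammatory genes, their own inhibitors IκBα (Nfkbia), IκBε (Nfkbie) and A20 (Tnfaip3), which closes a negative feedback loop. In myeloid cells the pathway is known as the route from Toll-like and TNF receptors to cytokine genes. The counts report the RNA of these genes, not the phosphorylation, degradation or nuclear position of the proteins.

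Because the feedback genes are induced through κB sites, the promoter windows in the RefSeq annotation of GRCm38.p6 (250 bases before to 50 bases after each start) were searched for the 10-base κB consensus on both strands. Windows were given for 7 of the 10 genes, not for Nfkb1, Relb or Nfkbiz, and 6 of those 7 genes held at least 1 match, the exception being Rela. Of all 32851 windows in the table, 1480 (4.51%) held a match, and of all 27025 genes, 5.14%. The stretches around the matches are shown because they are what the search found in the promoters of these genes. Each is written 5′ to 3′ on the strand of its gene, with the match in capitals, which span 11 bases where overlapping matches on both strands merge:
Nfkb2, first start, upstream match: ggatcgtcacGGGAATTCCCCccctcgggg
Nfkb2, first start, downstream match: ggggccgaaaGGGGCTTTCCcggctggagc
Nfkb2, second start, upstream match: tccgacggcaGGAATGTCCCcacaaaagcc
Nfkb2, second start and the next, shared match: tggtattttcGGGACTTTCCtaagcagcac
Rel: cgtaagcagcGGGAAATCCCCccccctccc
Nfkbia: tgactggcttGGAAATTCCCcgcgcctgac
Nfkbie: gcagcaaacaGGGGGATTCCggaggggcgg
Bcl3: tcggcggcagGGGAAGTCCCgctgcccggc
Tnfaip3, first start, upstream match: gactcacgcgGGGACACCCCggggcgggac
Tnfaip3, first start, downstream match: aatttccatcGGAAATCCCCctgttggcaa

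The Nfkb2 stretches lay at chr19:46304688-46304717, chr19:46304716-46304745, chr19:46305449-46305478 and chr19:46305695-46305724 on the plus strand. The Rel stretch lay at chr11:23771042-23771071 on the minus strand, with the match from 92 to 82 bases upstream of the start. The Nfkbie stretch lay at chr17:45555584-45555613 (plus) and the Bcl3 stretch at chr7:19822734-19822763 (minus), where the match began 3 bases into the transcribed sequence. The Tnfaip3 stretches lay at chr10:19015516-19015545 and chr10:19015403-19015432 on the minus strand. The first and the second window of Nfkb2 and the first of Tnfaip3 belong to the 55 windows (0.167% of all) with 2 or more. A match is a string of letters and not a measured binding site, and no binding was measured here.

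The whole window is shown for Nfkbia, whose RNA was the most abundant of the set per length, and for the first start of Tnfaip3, whose RNA differed most between the groups. The Nfkbia window covers chr12:55492598-55492897 and the Tnfaip3 window chr10:19015361-19015660, both on the minus strand, with the κB matches in capitals:
Nfkbia: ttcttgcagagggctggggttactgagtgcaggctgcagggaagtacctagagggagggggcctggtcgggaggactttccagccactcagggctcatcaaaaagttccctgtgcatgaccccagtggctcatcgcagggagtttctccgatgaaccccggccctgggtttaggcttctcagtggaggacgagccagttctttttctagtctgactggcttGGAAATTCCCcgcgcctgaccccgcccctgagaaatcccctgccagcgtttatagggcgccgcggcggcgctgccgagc
Tnfaip3: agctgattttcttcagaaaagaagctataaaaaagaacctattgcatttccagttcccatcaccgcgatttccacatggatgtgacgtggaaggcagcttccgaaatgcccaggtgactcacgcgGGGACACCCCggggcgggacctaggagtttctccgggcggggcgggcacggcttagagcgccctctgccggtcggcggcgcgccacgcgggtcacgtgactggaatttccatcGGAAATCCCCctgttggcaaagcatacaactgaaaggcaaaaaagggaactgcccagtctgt

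**Figure D1:**
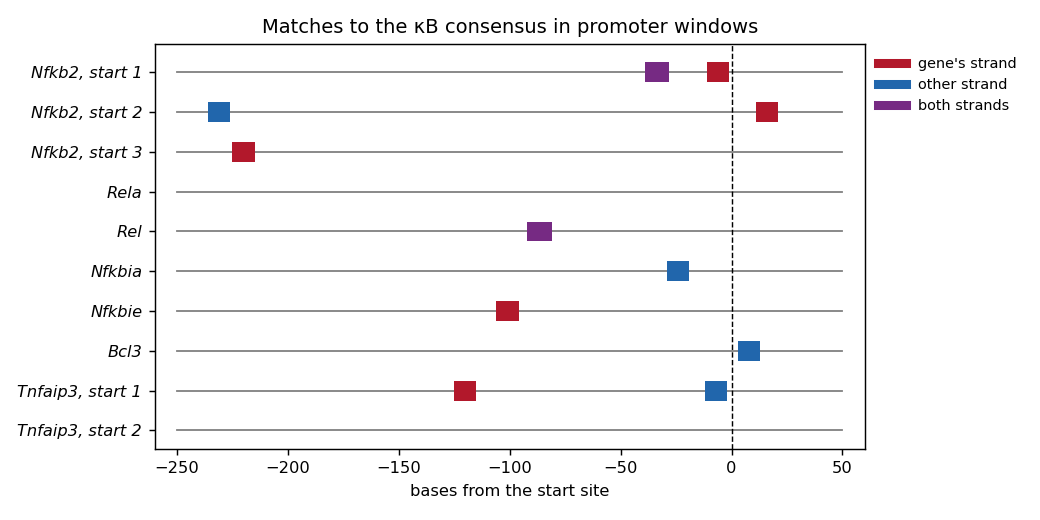
Map of κB consensus matches in the promoter windows given for 7 of the 10 genes, 1 grey line per annotated start; the horizontal axis gives bases from the start site (dashed) and the color gives the strand of the match. 8 of the 10 windows held a match, and the windows of Rela and of the second start of Tnfaip3 held none.

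The libraries were close to each other in depth, with 17767318 and 17973695 counts in the control group and 18390385 and 18091684 in the EGCG treatment group. Levels are given below as CPM, the read counts relative to the TMM-scaled size of the library. Checked against marker genes of cell types, summed neutrophil markers stood at 59196 and 70700 CPM in control and 79410 and 70101 CPM in EGCG. There the groups overlapped, with 7 of 10 above 0 in log2 fold change, and most of the sum was S100a8 and S100a9. Monocyte markers stood at 1962 and 1786 against 1636 and 1757 CPM (6 of 8 below 0). T cell markers were far lower, at 102 and 115.5 against 117.2 and 122.2 CPM (6 of 8 above 0), NK cell markers summed to 7.107 to 8.99 CPM, and platelet markers were at 40.86 and 44.32 against 36.12 and 37.29 CPM (5 of 5 tested below 0). Summed B cell markers were at 1817 and 1906 CPM in the control group and 2013 and 2064 CPM in the EGCG treatment group, with 6 of 8 above 0. Macrophage markers summed to 668.3 and 670.5 against 531.9 and 604.2 CPM, with 8 of 8 below 0 (Vcam1 among them, which is also an inflammatory target). Dendritic cell markers were at 143.6 and 134.9 against 118.9 and 138.9 CPM, where the groups overlapped (6 of 8 below 0). Erythroid markers were at 142.1 and 180.4 against 172 and 191 CPM, also with overlap (3 of 4 tested above 0). No marker was at 0 in all libraries, and Ncr1, Klrb1c and Klre1 of NK cells had at most 10 counts in each. Immune cells of these types also express NF-κB genes, the part of these shifts in the results below was not tested, and in such bulk RNA fewer cells of a type and less RNA per cell cannot be told apart.

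EGCG against control was the only comparison of the design, and none of the 10 genes passed it. At an adjusted p under 0.05 in edgeR's quasi-likelihood test, 0 of 10 were called, against 22 of all 14682 genes (0.15% in either direction, 0.136% lower and 0.0136% higher with EGCG). At an unadjusted p under 0.05 there was 1 gene, Tnfaip3, which was lower (in 9 of the 15 alternatives it was under that level); over all genes 7.02% were lower and 5.22% higher at that level. DESeq2 called 0 of the 10 as well. The log2 fold changes, EGCG minus control, ran from −0.17 to 0.07, with 4 above and 6 below 0. Their median was −0.04, beside 0.0031 for all tested genes, 50.59% of which lay above 0. Without EGCG replicate 2 only 2 of the 10 lay above 0, and the median lay above 0 when control replicate 1 (0.0028) or EGCG replicate 1 (0.0074) was left out.

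The median size of these differences was smaller than that of other tested genes. It was close to the standard errors, which ran from 0.07 to 0.09. The median absolute log2 fold change of the 10 genes was 0.07, compared with 0.13 over all tested genes and 0.09 over the 4048 tested genes in the same range of control CPM. The 95% confidence intervals of the 10 genes had their outermost ends at 0.787-fold (Tnfaip3) and 1.19-fold (Rela). In 3 genes both EGCG libraries lay below both control libraries (Rel, Nfkbiz and Tnfaip3), in 1 both lay above (Relb), and in 6 the groups overlapped. Over all tested genes the groups lay apart in this way in 21.2% (lower) and 21.5% (higher). The labels do not say that the libraries came from separate mice or cultures, so the p-values measure only the spread between these libraries, which may be technical.

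**Figure D2:**
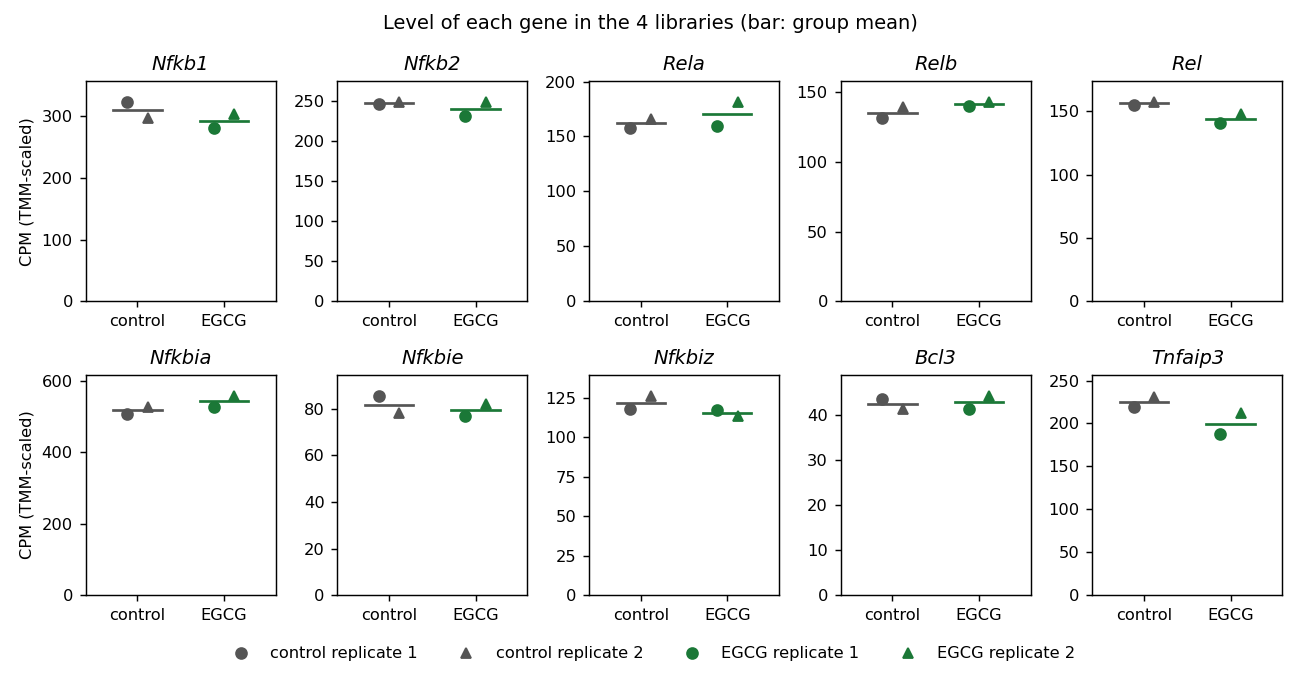
CPM of each of the 10 genes in each library, 1 panel per gene with its own vertical axis from 0; points are libraries (color for the group, shape for the replicate) and the horizontal bars are group means. The groups overlap in 6 panels, and Tnfaip3 shows the largest difference, with 219.6 and 231.1 CPM against 187.6 and 212.2 CPM.

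Among the subunits, Rel, which encodes the lymphoid and myeloid subunit c-Rel (ENSMUSG00000020275, chr11:23736847-23770970, minus strand), stood at 155.4 and 157.4 CPM in the control group and at 140.6 and 147.9 CPM in the EGCG treatment group. Both EGCG libraries were thus below both control libraries. Its log2 fold change was −0.12 (SE 0.07, 95% interval −0.27 to 0.04, edgeR adjusted p = 0.566). Its group means differed by 0.12 on the log2 scale, and its replicates by 0.02 in control and 0.07 in EGCG. The direction held under all 15 alternative settings, with log2 fold changes from −0.15 to −0.03, the latter after correction for gene length.

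Nfkb1, the gene of p105 and p50 (ENSMUSG00000028163, chr3:135584655-135691547, minus strand), had 322.4 and 297.1 CPM in control and 280.9 and 302.7 CPM in EGCG. The groups overlapped, the lowest library being EGCG replicate 1. A log2 fold change of −0.09 (SE 0.08, 95% interval −0.25 to 0.08, edgeR adjusted p = 0.708) resulted, and it was −0.02 without control replicate 1, −0.03 without EGCG replicate 1 and 0.06 when the counts were corrected for gene length in each library.

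Nfkb2, the gene of p100 and p52 and the precursor of the alternative pathway (ENSMUSG00000025225, chr19:46304320-46312385, plus strand), had 246.8 and 249.6 CPM in control and 232.3 and 249 CPM in EGCG. Here only EGCG replicate 1 was apart from the other libraries, and without it the log2 fold change of −0.04 (SE 0.07, 95% interval −0.20 to 0.11, edgeR adjusted p = 0.862) became 0.0070. Of its exonic bases, 18.1% overlap genes on the opposite strand (Psd and AC114539.1), and since counting did not use strand those reads cannot be told apart.

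Rela, the gene of the main transactivating subunit p65 (ENSMUSG00000024927, chr19:5637483-5648130, plus strand), had 158.1 and 165.6 CPM in control and 159.6 and 181.1 CPM in EGCG. Only EGCG replicate 2 was above both control libraries. The difference was 0.07 on the log2 scale (SE 0.08, 95% interval −0.10 to 0.25, edgeR adjusted p = 0.767) and became −0.02 without that library.

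Relb, the transactivating partner of p52 (ENSMUSG00000002983, chr7:19606217-19629438, minus strand), had 131.2 and 139.2 CPM in control and 139.9 and 142.9 CPM in EGCG. Both EGCG libraries were above both control libraries, the nearest pair being 139.2 and 139.9 CPM. This gave a log2 fold change of 0.06 (SE 0.07, 95% interval −0.09 to 0.22, edgeR adjusted p = 0.779), which became 0.03 when control replicate 1 was left out and 0.11 when control replicate 2 was.

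The cytoplasmic inhibitors did not pass the test in either direction. Nfkbia, which encodes IκBα, the rapidly resynthesized inhibitor of RelA and c-Rel dimers (ENSMUSG00000021025, chr12:55489410-55492647, minus strand), had 508.7 and 528.4 CPM in control and 526.8 and 558.7 CPM in EGCG. The highest library was EGCG replicate 2, and EGCG replicate 1 lay between the control libraries. The log2 fold change was 0.07 (SE 0.08, 95% interval −0.10 to 0.23, edgeR adjusted p = 0.779), an interval of 0.936-fold to 1.17-fold. Leaving out EGCG replicate 2 made it 0.02, and leaving out EGCG replicate 1 made it 0.11. Its promoter window carries the κB match shown above from 29 to 20 bases upstream of the start.

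Nfkbie, which encodes IκBε, an inhibitor that is induced later and acts mainly on RelA and c-Rel (ENSMUSG00000023947, chr17:45555703-45563169, plus strand), had 85.6 and 78.18 CPM in control and 76.83 and 82.19 CPM in EGCG. The groups overlapped. Its log2 fold change was −0.04 (SE 0.08, 95% interval −0.22 to 0.13, edgeR adjusted p = 0.881), and it lay above 0 once control replicate 1 (0.03) or EGCG replicate 1 (0.0077) was left out.

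The nuclear IκB proteins act on chromatin-bound p50 and p52 and modify transcription rather than retain dimers. Nfkbiz, the gene of IκBζ, which is needed for a class of secondary response genes such as Il6 and Lcn2 (ENSMUSG00000035356, chr16:55811375-55838899, minus strand), had 118 and 126.4 CPM in control and 117.4 and 113.4 CPM in EGCG. Both EGCG libraries were below both control libraries, the nearest pair being 118 and 117.4 CPM. The log2 fold change was −0.08 (SE 0.08, 95% interval −0.24 to 0.08, edgeR adjusted p = 0.713), with −0.03 when control replicate 2 was left out and −0.13 when control replicate 1 was.

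Bcl3, a coregulator that binds p50 and p52 homodimers (ENSMUSG00000053175, chr7:19808462-19822770, minus strand), had 43.48 and 41.35 CPM in control and 41.31 and 44.23 CPM in EGCG. These were the lowest counts of the set, and the groups overlapped. The log2 fold change was 0.01 (SE 0.09, 95% interval −0.18 to 0.20, edgeR adjusted p = 0.976), and its sign turned under library size scaling (−0.02), without control replicate 2 (−0.02) and without EGCG replicate 2 (−0.04). An opposite-strand gene, Gm16175, overlaps 6.51% of its exonic bases.

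Tnfaip3, the gene of the ubiquitin-editing enzyme A20 that shuts off signalling upstream of IKK (ENSMUSG00000019850, chr10:19000910-19015657, minus strand), showed the largest difference of the set. It had 219.6 and 231.1 CPM in control (mean 225.4 ± 8.14, SD, n = 2) and 187.6 and 212.2 CPM in EGCG (199.9 ± 17.4, SD, n = 2). Both EGCG libraries were below both control libraries, with EGCG replicate 1 the lowest. The mean level was 0.887-fold that of control (log2 fold change −0.17, SE 0.08, 95% interval 0.787-fold to 0.999-fold). In edgeR the unadjusted p was 0.0489 and the adjusted p 0.406, so the difference did not pass over all genes tested.

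The gap between the group means of Tnfaip3 (0.1752 on the log2 scale) was slightly smaller than the gap between the EGCG replicates (0.1775). Its direction held under all 15 alternatives, with log2 fold changes from −0.26 to −0.08 and adjusted p from 0.242 to 0.840. The value nearest to 0, −0.08, arose without EGCG replicate 1, and the value furthest, −0.26, without EGCG replicate 2. After correction for gene length it was −0.09 (edgeR unadjusted p = 0.275), and the unadjusted p was 0.0672 in DESeq2 and 0.0680 in edgeR without a filter on low counts. The window of its first start, shown above, held κB matches from 125 to 116 and from 12 to 3 bases upstream of the start.

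**Figure D3:**
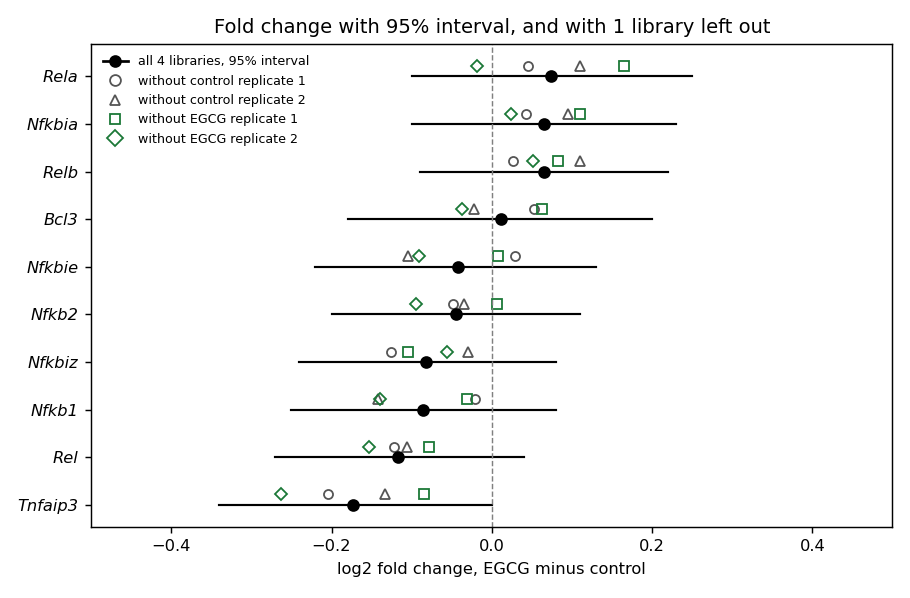
Log2 fold change, EGCG minus control, of the 10 genes with the 95% confidence interval of edgeR's quasi-likelihood fit (black); open symbols give the value with each library left out, and the dashed line marks 0. Every interval except that of Tnfaip3 includes 0, no adjusted p was under 0.05, and the sign of Bcl3 turned with library size scaling and that of Nfkb1 with length correction.

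Levels between genes were compared per length, as RPKM with the summed exonic length of each gene in GENCODE M21. Nfkbia was far above the rest, at 316 and 328.2 RPKM in control and 327.2 and 347 RPKM in EGCG. Rela (51.45 to 58.94 RPKM over the 4 libraries) and Nfkb2 (50.68 to 54.46 RPKM) came next and overlapped each other, followed by Relb (33.76 to 36.78 RPKM). Tnfaip3 (25.97 to 31.98 RPKM), Nfkbie (25.23 to 28.11 RPKM) and Nfkb1 (23.29 to 26.73 RPKM) each overlapped the next in order, the last of which was Nfkbiz (22.6 to 25.18 RPKM). Rel (18.83 to 21.08 RPKM) and Bcl3 (16.69 to 17.87 RPKM) were lowest and apart from their neighbors. The order below Nfkbia depended on the length used, since the summed exons of some genes are far longer than their principal transcript. Nfkb1 has 12061 exonic bases over 10 transcripts but 4117 in its principal transcript, and with principal transcript lengths, an alternative chosen after seeing the data, it moved from place 7 to place 3 (68.24 to 78.31 RPKM). With those lengths Nfkb2 was in place 2 (73.96 to 79.48 RPKM), Rela in place 5 (58.19 to 66.66 RPKM) and Rel in place 10.

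**Figure D4:**
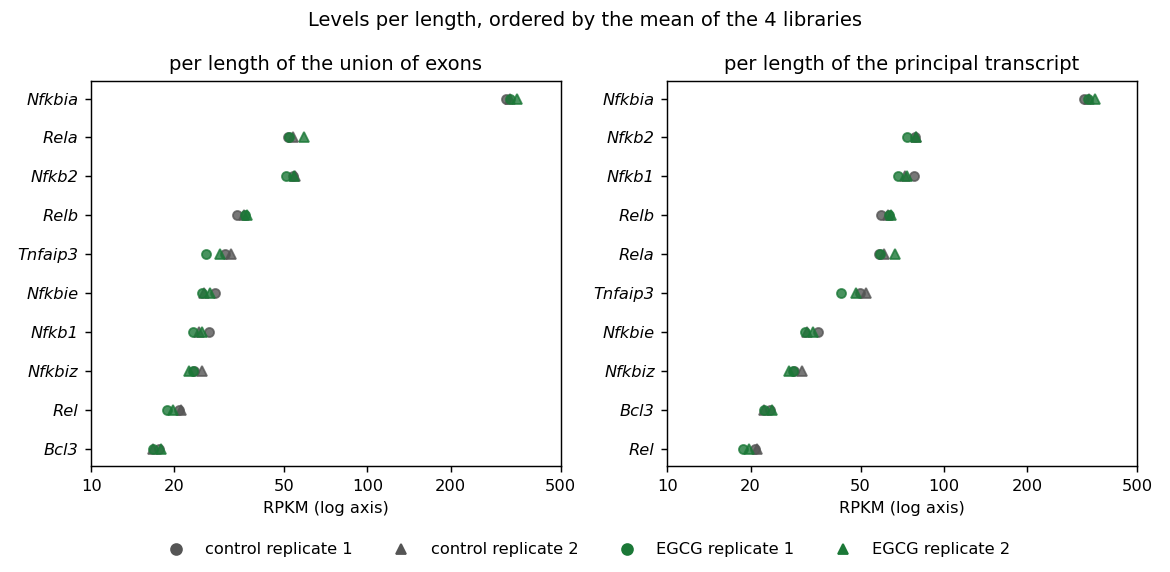
RPKM of the 10 genes in the 4 libraries on a logarithmic axis, with exonic length and with principal transcript length. Nfkbia lies between 316 and 347 RPKM with exonic length and above all other genes with both lengths, whereas Nfkb1 changes its place with the length used.

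The balance between the members was described without a test. An exact permutation test of 2 against 2 libraries cannot give a two-sided p below 0.333, and no model-based test of the ratios was run. Rel made up 11.2% and 11.1% of the summed subunit RPKM in control and 10.4% and 10.2% in EGCG, and Rela 27.6% and 28.4% in control and 28.7% and 30.2% in EGCG. The ratio of Rela to Rel RPKM was therefore 2.47 and 2.56 in control and 2.76 and 2.98 in EGCG. The sum of Nfkbia and Nfkbie RPKM was 1.84 and 1.86 times that of the 5 subunits in control and 1.95 and 1.92 times in EGCG. In these ratios, in that of Nfkbia to Nfkbie (11.2 and 12.8 in control, 13.0 and 12.9 in EGCG) and in the shares of Nfkb1 (14.3% and 13.0% against 12.9% and 12.9%) and Nfkb2 (28.85% and 28.67% against 28.03% and 27.86%) the groups did not overlap. For Nfkb1 the nearest pair was 12.97% and 12.89%. Over all tested genes the levels of single genes lay apart in 21.2% (lower) and 21.5% (higher). The ratios and shares reuse the same few genes, so they are not separate observations. The share of Relb was 18.1% and 18.9% in control and 19.9% and 18.9% in EGCG, so the groups met. They overlapped in the ratio of Nfkbia to Rela (6.14 and 6.09 in control, 6.30 and 5.89 in EGCG) and in that of Nfkb1 to Nfkb2 (0.497 and 0.452 in control, 0.460 and 0.462 in EGCG). With principal transcript lengths the inhibitor to subunit ratio was 1.21 and 1.24 in control and 1.29 and 1.28 in EGCG. Both lengths scale all libraries alike, and the ratios were not recomputed with the correction for gene length in each library. With it the log2 fold changes were 0.047 for Nfkbia and −0.041 for Nfkbie. Those of the subunits were 0.055 (Nfkb1), −0.013 (Nfkb2), 0.076 (Rela), 0.082 (Relb) and −0.032 (Rel), so the differences in these ratios may depend on it. The summed subunit RPKM itself overlapped, at 186.6 and 189.9 in control and 180.8 and 194.9 in EGCG.

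The rest of the pathway was read from 5 lists with 105 genes, of which 103 were tested (Csf2 and Ptx3 had too few reads). In edgeR 0 of the 103 passed at an adjusted p under 0.05, and at an unadjusted p under 0.05 there were 4 higher and 11 lower. Over all tested genes the shares were 0.15% at the adjusted level, and 5.22% higher and 7.02% lower at the unadjusted level. For the counts above and below 0 given per list, the share of all tested genes above 0 was 50.59%. DESeq2 called 1, Saa3, and leaving out a library gave 1 to 3 calls, while the genes called lower over the whole table went from 20 to between 72 and 235. Such a fit has 1 library in one group, which is assumed to vary like the pair in the other. Without control replicate 1 these were Cxcl3, Cxcl2 and Saa3, without control replicate 2 Tnip2, Saa3 and Malt1, without EGCG replicate 1 Saa3, and without EGCG replicate 2 Cxcl3, Cxcl10 and Saa3.

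Upstream of the subunits, 10 of 12 genes of the IKK complex and its kinases lay below 0 and 2 above, with a median log2 fold change of −0.07 that ranged from −0.12 (control replicate 2 left out) to 0.02 (gene length corrected) over the alternatives. Tbk1, an IKK-related kinase best known for activating IRF3, was at 126.8 and 126.7 CPM in control and 114.8 and 106.7 CPM in EGCG (log2 fold change −0.19, SE 0.08, edgeR adjusted p = 0.324). Map3k8 (TPL2, a kinase held by p105) had a log2 fold change of −0.18 and Map3k14 (NIK, the kinase of the alternative pathway) one of −0.16, which was −0.09 after correction for gene length. Chuk, the gene of IKKα, had the only value above 0 among the named genes of this list, 0.06, which was 0.04 with control replicate 1 left out, 0.02 under library size scaling and 0.10 after correction for gene length. None of these passed the test.

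Of the 18 receptor-proximal adaptors, 5 lay above and 13 below 0 (median −0.04, from −0.08 under library size scaling to 0.03 after correction for gene length, and −0.02 with EGCG replicate 1 left out). The adaptors of the CARD9, BCL10 and MALT1 complex differed in sign, and none of them passed the test with all libraries. Card9, given here to complete the complex, had a log2 fold change of −0.09 with overlapping groups (edgeR adjusted p = 0.717). Bcl10 had 173.6 and 187.8 CPM in control and 201.2 and 211.5 CPM in EGCG (log2 fold change 0.19, SE 0.08, edgeR adjusted p = 0.339), with both EGCG libraries above. Malt1 had 185.8 and 154.3 CPM in control and 140.9 and 152.1 CPM in EGCG (−0.22, SE 0.09, edgeR adjusted p = 0.364), where control replicate 1 was apart. Without that library its log2 fold change was −0.07 (adjusted p = 0.960) and after correction for gene length −0.03, whereas without control replicate 2 it was −0.34 (adjusted p = 0.0393). Traf3, which marks NIK for degradation, had a log2 fold change of −0.21 (edgeR adjusted p = 0.280), which was −0.13 after correction for gene length, and Tradd (the adaptor of TNF receptor 1) one of 0.17. Birc3 (the ubiquitin ligase cIAP2) was at −0.10, with −0.16 when control replicate 1 and −0.03 when control replicate 2 was left out, and −0.06 after correction for gene length.

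Of the 21 further IκB proteins and negative regulators, 14 lay above and 7 below 0, with a median of 0.03 that was −0.0047 under library size scaling and 0.07 both after correction for gene length and with control replicate 2 left out, and 0.05 with EGCG replicate 1 left out. Tnip2, which encodes the A20-binding protein ABIN-2, had 20.7 and 16.96 CPM in control and 14.45 and 13.04 CPM in EGCG. Both EGCG libraries were lower, and the log2 fold change was −0.45 (SE 0.13, edgeR adjusted p = 0.199). Without control replicate 1 it was −0.30 with an adjusted p of 0.819, and without control replicate 2 −0.59 with an adjusted p of 0.0260. Rnf11, a partner of A20, lay in the other direction, with 101.3 and 104.5 CPM in control and 117.4 and 120.8 CPM in EGCG (0.21, SE 0.07, edgeR adjusted p = 0.278). Nfkbil1 (0.26, and 0.15 with EGCG replicate 1 left out) and Nkiras2 (0.16, with 0.25 and 0.06 when EGCG replicate 1 and 2 were left out) were also above 0. Zc3h12a, the gene of the RNase Regnase-1, was at −0.12, and N4bp1 was at −0.09, which was −0.06 with control replicate 2 left out and 0.05 after correction for gene length. None of these 4 passed the test.

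Among the 35 tested inflammatory target genes, 11 lay above and 24 below 0, with a median of −0.09 that became 0.02 without control replicate 2, −0.04 without EGCG replicate 1 and −0.16 without EGCG replicate 2. Cxcl3, a neutrophil-attracting chemokine, was at 9.42 and 11.36 CPM in control and 4.853 and 6.606 CPM in EGCG. All EGCG values were below the control values. The log2 fold change was −0.86 (SE 0.18, 95% interval −1.25 to −0.46) and the edgeR adjusted p 0.0826, which ranged from 0.000203 without EGCG replicate 2 to 0.593 without a filter on low counts. Of the alternatives, 4 were under 0.05 and DESeq2 gave no adjusted p for this gene.

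Saa3, an acute-phase apolipoprotein, was at 61.83 and 67.43 CPM in control and 47.04 and 47.2 CPM in EGCG. The EGCG libraries were lower and close together. The log2 fold change was −0.46 (SE 0.09, 95% interval −0.64 to −0.27) and the edgeR adjusted p 0.0546, with 8 of 15 alternatives under 0.05 and a range from 0.00598 to 0.562. Cxcl3 and Saa3 were also picked out by the study on these same libraries, so their direction is not independent evidence. Sele, the gene of the endothelial adhesion molecule E-selectin, had 6.627 and 6.995 CPM in control and 5.019 and 5.095 CPM in EGCG (−0.43, edgeR adjusted p = 0.355). Summed endothelial markers moved with it, at 130.9 and 139.8 CPM in control and 103.4 and 111.5 CPM in EGCG with 5 of 5 tested markers below 0. Most of that sum was Pecam1, and the median log2 fold change of the 5 markers, −0.75, was further from 0 than that of Sele. Their part in it was not tested.

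Other inflammatory genes had values nearer to 0 or above it. Il1b, a cytokine gene at a high level, had 769.3 and 941.3 CPM in control and 870.2 and 863.2 CPM in EGCG (log2 fold change 0.02, edgeR adjusted p = 0.960). Tnf had 103.6 and 92.56 CPM in control and 92.1 and 84.09 CPM in EGCG, where every EGCG library was lower, the nearest pair being 92.56 and 92.1 CPM (−0.15, edgeR adjusted p = 0.496). Il6 had 9.748 and 12.42 CPM in control and 9.1 and 9.574 CPM in EGCG (−0.25, edgeR adjusted p = 0.567). These 3 genes were named after their values were seen. Cd83, a maturation marker, was at 108.8 and 112.5 CPM in control and at 129.9 and 121.9 CPM in EGCG (0.19, edgeR adjusted p = 0.344), and Stx11 and the protease gene Mmp9 each had a log2 fold change of 0.14.

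The 17 survival and stress genes were divided, with 9 above and 8 below 0. Their median of 0.01 turned sign with control replicate 1 left out (−0.03) and under library size scaling (−0.02), and was 0.04 with control replicate 2 left out. Plk3, a stress-response kinase, was at 79.46 and 75.71 CPM in control and 64.36 and 69.14 CPM in EGCG (−0.22, SE 0.08, edgeR adjusted p = 0.306). Bcl2a1a, an antiapoptotic gene, had a log2 fold change of −0.24 (edgeR adjusted p = 0.344; −0.15 with control replicate 2 left out), but it shares most of its sequence with Bcl2a1b and Bcl2a1d, so its count is uncertain. Cflar, the gene of the caspase-8 inhibitor c-FLIP, was at −0.12, and at 0.03 after correction for gene length. Above 0 lay Ninj1, the gene of a membrane protein that ruptures the membrane of dying cells, at 0.11 (0.05 and 0.19 when control replicate 1 and 2 were left out). Birc5, the gene of survivin, was also at 0.11 (0.03 and 0.18 when EGCG replicate 1 and 2 were left out). Sod2, the gene of the mitochondrial superoxide dismutase, was at 0.10 (0.02 and 0.19 when control replicate 1 and 2 were left out, and 0.22 after correction for gene length). None of the 3 passed the test. Matches to the κB consensus lay in the promoter windows of 9 of the 26 inflammatory targets and of 5 of the 17 survival genes found in the table. Of all genes 5.14% held a match. Both lists were made up of NF-κB target genes, so a higher share in them is no separate result.

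**Figure D5:**
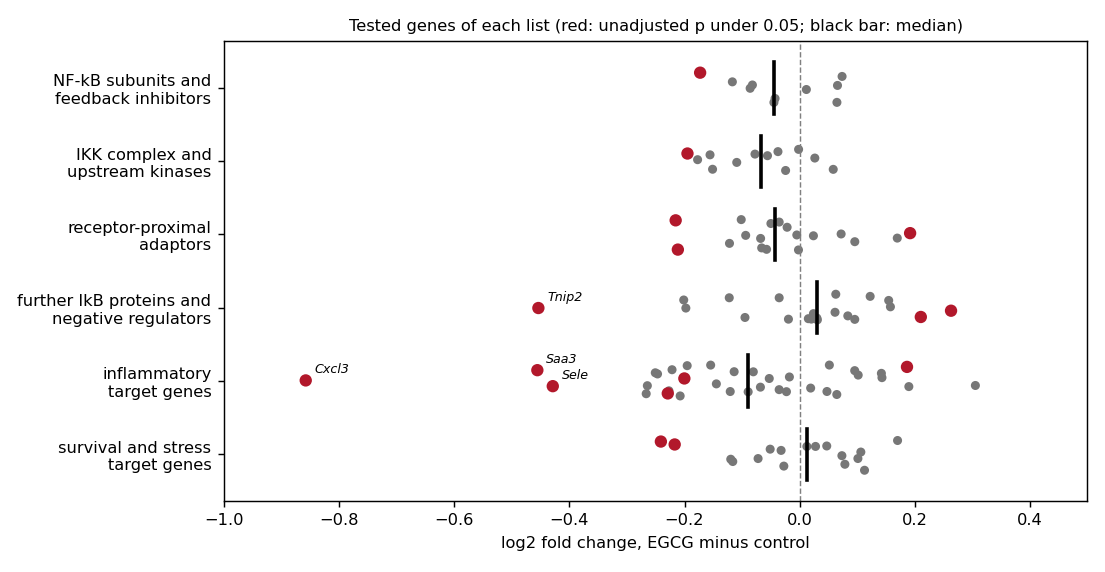
Log2 fold change, EGCG minus control, of the 10 genes and of the tested genes of the 5 pathway lists, 1 point per gene (large and red where the unadjusted edgeR p was under 0.05), with the list median as a bar. The medians lie between −0.09 and 0.03, and the points furthest from 0 are Cxcl3 (−0.86), Saa3 (−0.46) and Tnip2 (−0.45).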

How the data were processed

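MDSCs from the spleen were profiled by RNA-seq in 2 control and 2 EGCG libraries, grouped by their labels. Per the submitters' processing notes and the methods, the authors used bcl2fastq 1.8.4, FastQC, STAR 2.6.0c (GRCm38) and featureCounts 1.6.2 on the Ensembl annotation, without strand, and deposited raw counts per gene.

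From these counts, genes were filtered with filterByExpr (minimum count of 10), scaled by TMM and tested in edgeR 4.0.16 (R 4.3.3; quasi-likelihood, legacy form, no block). Adjusted p-values (Benjamini-Hochberg, 14682 genes) under 0.05 were called. DESeq2 1.42.0, other filters, scalings, a length correction, a replicate block and each library left out were alternatives. RPKM used GENCODE M21 lengths (53360 of 53465 identifiers). Tables and plots were made in Python 3.11.15 (pandas 2.3.3, matplotlib 3.10.9).

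The members and pathway lists were chosen with earlier results of these data known. Beside the members, up to 3 pathway genes per list and direction were named, those with the largest fold changes among tested genes that had 50 counts or more per library and groups that did not overlap. Intervals cover the spread between these libraries only.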

Additional observations from a re-analysis of the deposited data

How the results depend on the processing

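None of the 10 genes was called under any of the 15 alternatives (smallest adjusted p 0.242 in edgeR or DESeq2), and 141 of 150 log2 fold changes kept their direction; Relb, Rel, Nfkbia, Nfkbiz and Tnfaip3 kept it in all. The sign turned for Nfkb1 with length correction (0.055) and with replicate block and length correction (0.055), and for Bcl3 with library size only (−0.024). Leaving out each library gave −0.094 to 0.0070 for Nfkb2, −0.019 to 0.16 for Rela, −0.10 to 0.029 for Nfkbie and −0.037 to 0.063 for Bcl3, and, with no change of sign, −0.14 to −0.02 for Nfkb1, 0.03 to 0.11 for Relb, 0.02 to 0.11 for Nfkbia and −0.13 to −0.03 for Nfkbiz. It gave 2 to 6 members above 0 and a members' median of −0.074 to 0.0074. N4bp1 (0.046 and 0.047) and Cflar (0.027 and 0.027) turned sign with length correction, alone and with the block. The cause was not tested.

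Over all genes the counts depended on the setting. The 20 genes called lower became 0 without a filter, 9 with a minimum count of 50, 9 with upper-quartile scaling, 135 with library size only, 49 with the robust fit, 49 in DESeq2, 3 with length correction, 2 with replicate block and length correction, and 72, 235, 90 and 199 without control replicate 1, control replicate 2, EGCG replicate 1 and EGCG replicate 2. The 2 called higher became 0 without a filter, 1 with a minimum count of 50, 16 with library size only, 14 with the robust fit, 6 with the newer edgeR fit, 15 in DESeq2, 6 with the replicate block, and 5, 119, 28 and 53 with the same libraries left out in turn. Calls in the pathway lists (0) became 2 with library size only, 2 with the robust fit, 1 with the newer edgeR fit, 1 in DESeq2 and 1 to 3 with a library left out. The cause was not tested.

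The labels do not say whether same-numbered libraries share a mouse, culture or batch. Over all tested genes they barely deviated together (correlation 0.0336 across genes, which are not independent). A shared origin that touches few genes would not show in this value, and pairing was not tested. With the replicate block 24 genes were called lower, 6 higher and 0 of the members. Depth gave the least abundant member, Bcl3, 739 to 794 counts a library, and with 2 libraries a group the fit had 2 residual degrees of freedom.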
